A study of Mus musculus with 2 samples.

Results

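The genes described here encode the proteins of the cytoplasmic ribosome. They were chosen by name: every gene listed for both libraries whose symbol begins with Rpl or Rps and a digit, the stalk genes Rplp0, Rplp1 and Rplp2, and Rpsa, without the ribosomal S6 kinases, Rps19bp1 and pseudogene names. The rule found 85 genes among 22686 listed in either library. Of these, 33 belong to the small subunit (2 of them paralogues), 49 to the large subunit (6 of them paralogues), and 3 form the stalk. The rule reads names alone.

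Spleen T cells of 2 mouse genotypes were profiled with the BD Rhapsody single-cell system, 1 library per genotype, from animals 8 to 9 weeks old. Both genotypes carry LatY136F, a point mutation in the adaptor LAT, the scaffold that passes T cell receptor signals to phospholipase C gamma. The second genotype, LatY136F CD45-KO, also lacks the receptor tyrosine phosphatase CD45, encoded by Ptprc, and is called CD45-KO here. Cells positive for CD3 and CD5 were sorted. How many mice were pooled is not stated in the labels, and no wild-type library was part of the comparison. The 2 libraries carry different experiment numbers in their titles, so experiment and genotype cannot be told apart.

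A ribosome is built from ribosomal RNA and a large set of proteins, made in matched amounts and joined to the RNA in the nucleolus. Most messenger RNAs of ribosomal proteins, and those of several translation factors, start with a run of pyrimidines known as a 5′ terminal oligopyrimidine (TOP) tract, through which the kinase mTOR and the binding protein Larp1 control their translation and stability. T cells enlarge their ribosome pool when the antigen receptor is engaged and before division. The counts here give messenger RNA alone, not protein and not translation.

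The tract lies at the start of the transcript, so the sequence around the annotated start was searched for short pyrimidine motifs. The RefSeq promoter table (GRCm38.p6) held 65 of the 85 genes. In a window of 30 bases, from 10 before the annotated start, 18 of the 65 genes (27.7%) had at least 1 of 3 pyrimidine motifs on the coding strand (CTTTCC, then CTCTTT, and lastly CTTTTC), against 3.60% of all 27025 genes in the table. These motifs overlap one another, so 1 stretch can match more than 1 of them. On the opposite strand the shares were 3.08% and 3.38%. Over the whole 300 bases of the table, 67.7% of the ribosomal protein genes and 33.4% of all genes had a match on the coding strand. The letters CCGGAAG, the core bound by ETS family factors, were present on either strand of the 300 bases in 26 of the 65 genes (40%), against 9.93% of all genes. A match is a description of these letters in these windows. It can lie anywhere in the window, so it does not mark a TOP tract, and a gene without a match can have one.

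The genes shown next had at least 50 CPM (UMIs of a gene scaled to a common library total) in a library. Among those in the promoter table, windows are given for the 4 with the highest and the 4 with the lowest CD45-KO ratio. Each is written 5′ to 3′ on the gene's strand, with the matched pyrimidine letters in capitals.
Rps10, chr17:27635225-27635254, minus strand: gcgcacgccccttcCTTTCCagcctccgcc
Rps19, chr7:24884582-24884611, plus strand: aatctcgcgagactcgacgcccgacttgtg
Rpl18, chr7:45718061-45718090, plus strand: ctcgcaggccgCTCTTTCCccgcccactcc
Rps18, chr17:33955646-33955675, minus strand: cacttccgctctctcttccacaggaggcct
Rps27l, chr9:66946076-66946105, plus strand: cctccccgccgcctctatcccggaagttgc
Rpl13a, chr7:45128726-45128755, minus strand: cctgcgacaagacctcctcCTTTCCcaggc
Rpl37, chr15:5116603-5116632, plus strand: cctgggcggaagcttatccacaggaagtgg
Rpl38, chr11:114668570-114668599, plus strand: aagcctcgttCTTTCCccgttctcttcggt
Of the 4 genes with the highest ratios Rps10 and Rpl18 held a match, and of the 4 with the lowest Rpl13a and Rpl38 did. Rps18 has a run of pyrimidines from its annotated start that fits none of the motifs. The match of Rpl38 begins at its annotated start, and those of Rps10, Rpl18 and Rpl13a begin after theirs. Genes with and without a match are therefore not TOP and other genes. Rps19 has 3 annotated starts in the table and Rps27l has 2, of which 1 is shown. Over all genes with a ratio, the median log2 ratio of CD45-KO over LatY136F was 0.24 for the 18 with a match near the start and 0.19 for the 45 without. It was 0.18 for the 26 with CCGGAAG and 0.22 for the 37 without.

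The LatY136F library held 13775 cells and 35300371 molecules counted by unique molecular identifier (UMI), and the CD45-KO library 12845 cells and 29268453 UMIs. After filters on genes and mitochondrial share, and removal of 29 and 83 cells with at least 3 B, plasma, myeloid or erythroid marker genes, 13718 and 12751 T-gated cells remained. Their median UMIs were 2154 and 1988, and their median mitochondrial shares were 8.59% and 9.42%. All 10 T cell markers were present in both libraries, at a summed 9154 and 7539 CPM. Markers of other cells summed to 4 and 5 CPM for 7 B cell genes, 3 and 5 for 4 plasma cell genes, 175 and 165 for 10 myeloid genes, 2 and 1 for 5 erythroid genes, and 4 and 10 for 5 NK genes. Of these markers 1 B cell, 4 myeloid and 1 NK gene were at 0 in LatY136F, and 3 myeloid and 1 erythroid gene in CD45-KO. Ptprc was counted at 1759 CPM in LatY136F and 1178 CPM in CD45-KO, a log2 ratio of -0.58. The labels do not name the deleted stretch of Ptprc, so this count does not check the label. Lat, whose mutation changes the protein, was at 425 and 377 CPM. The 2 libraries shared 223 cell labels.

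Ribosomal protein genes took a larger share of the RNA counts in CD45-KO than in LatY136F. In T-gated cells they gave 3282477 of the LatY136F UMIs, or 9.34% (95% interval 9.33 to 9.35), and 3074985 of the CD45-KO UMIs, or 10.7% (10.70 to 10.72), a difference of 1.37 percentage points. In cells of at most 10% mitochondrial UMIs the shares were 9.25% and 10.1%, a difference of 0.875. Intervals here are exact, cover counting error only, and say nothing of differences between mice or captures; with 1 library per genotype no test could be made. The share per cell was shifted throughout its range. The 5th percentile over cells was 6.29% in LatY136F and 6.97% in CD45-KO, the median 8.97% and 10.2%, and the 95th percentile 12.3% and 14.8%.

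The mean number of ribosomal protein UMIs per cell was nearly equal, at 239 in LatY136F and 241 in CD45-KO, a ratio of 1.01. All other UMIs averaged 2322 and 2010 per cell, a ratio of 0.866. The higher share in CD45-KO thus stands beside a lower count of other RNA per cell. UMIs per cell depend on capture and sequencing as well as on RNA content, and their part in the result was not tested. All values that follow are CPM of T-gated cells and log2 ratios of CD45-KO over LatY136F, unless a sentence names another group of cells.

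Most members were higher in CD45-KO by a small factor. Of the 85 genes, 83 had at least 20 UMIs over both libraries and 71 had at least 500 CPM in both. Of the 83, 72 (86.7%) were higher in CD45-KO and 11 lower, where 53.8% of all 12812 genes with 20 UMIs were higher. A margin of 1.1-fold was passed upward by 57 members and downward by 4, against 35.9% of all genes upward and 30.1% downward. The median log2 ratio was 0.21 over members (0.13 in cells of at most 10% mitochondrial UMIs) and 0.03 over all genes, and the central 90% of members lay between -0.09 and 0.41. Ratios beyond 1.5-fold were seen for 1 member, Rpl39l, where 17.6% of all genes passed that size in either direction.

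Genes that are no members and had at least 500 CPM in a library give a closer match in level. Of 233 such genes 41.6% were higher in CD45-KO, 27.5% by at least 1.1-fold, with a median of -0.06, and 6.01% were past 1.5-fold in either direction. Both subunits had like values: 29 of 31 small subunit genes were higher with a median of 0.21, and 38 of 43 large subunit genes with a median of 0.22. Without paralogues, 68 of 77 genes were higher.

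**Figure D1:**
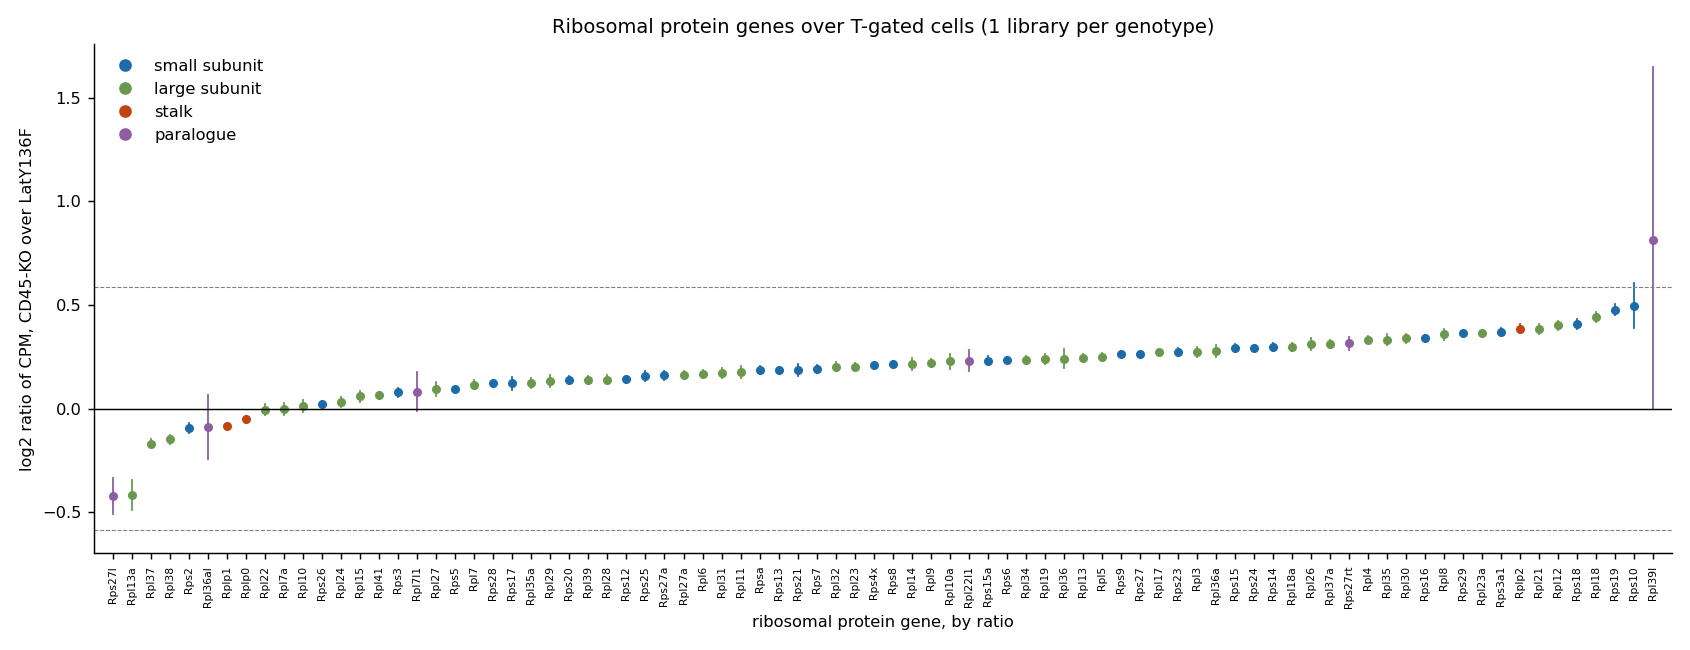
Log2 ratio of CPM in CD45-KO over LatY136F (vertical axis) for 82 of the 83 ribosomal protein genes with at least 20 UMIs, ordered by ratio (horizontal axis) and coloured by place in the ribosome; points are 1 library per genotype, vertical lines 95% counting intervals, dashed lines 1.5-fold. Of the 82 points 72 lie above 0, and Rps27l and Rpl13a stand below the rest at -0.42.

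In the small subunit the highest ratio belonged to Rps10, with 35.5 CPM in LatY136F and 50.1 CPM in CD45-KO, a log2 ratio of 0.50 (0.39 to 0.61). Rps10 lies at chr17:27630418-27636669 and its protein sits on the head of the subunit. Rps19, at chr7:24884371-24889806, is a gene whose loss of 1 copy is known to cause Diamond-Blackfan anaemia in people. It was counted at 612 CPM in LatY136F and 853 CPM in CD45-KO, a ratio of 0.48 (0.45 to 0.50). Rps18, also of the head, had 718 and 953 CPM and a ratio of 0.41. Rps3a1, the mouse gene for the protein eS1, had 1475 and 1906 CPM and a ratio of 0.37. These 4 genes, of low to high UMI counts, were all higher in CD45-KO.

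The small subunit genes with the most UMIs were also higher in CD45-KO. Rps24, another gene of Diamond-Blackfan anaemia, had 2587 and 3174 CPM, a ratio of 0.30. Rps27, a zinc finger protein, had 2460 and 2955 CPM, a ratio of 0.26. Rps9, which joins the subunit early in assembly, had 2309 and 2773 CPM, a ratio of 0.26, and Rps13 had 2435 and 2773 CPM, a ratio of 0.19. Rpsa, known also as the laminin receptor, had 1279 and 1454 CPM, a ratio of 0.19. CPM counts molecules and was not divided by gene length, so the order of these levels is an order of molecules counted.

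Against this, Rps2, a protein of the channel through which messenger RNA enters, was lower in CD45-KO. It had 883 and 827 CPM, a ratio of -0.09 (-0.12 to -0.07). In cells outside the gates described below Rps2 was level, with 771 and 769 CPM (-0.00, -0.04 to 0.03). Rps26, which lies where messenger RNA leaves the ribosome, was nearly level with 2079 and 2109 CPM, a ratio of 0.02.

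In the large subunit Rpl18 had 682 CPM in LatY136F and 926 CPM in CD45-KO, a log2 ratio of 0.44 (0.42 to 0.47). Rpl12, at the base of the stalk, had 882 and 1165 CPM, a ratio of 0.40, and Rpl21 had 749 and 979 CPM, a ratio of 0.39. Rpl17, which lines the exit tunnel of the new protein, had the most UMIs of the large subunit outside the stalk, with 2492 and 3007 CPM and a ratio of 0.27. These 4 genes were higher in CD45-KO by 1.21-fold (Rpl17) to 1.36-fold (Rpl18).

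Rpl13a was the large subunit gene with the lowest ratio, with 114 CPM in LatY136F and 85.3 CPM in CD45-KO, -0.42 (-0.49 to -0.34). In cells outside the gates described below Rpl13a was at -0.27 (-0.38 to -0.16). Rpl13a was at -0.27 in the cycling gate too, and at -0.66 in the naive gate. Its protein is known to leave the ribosome of interferon-treated myeloid cells and to silence inflammatory messages there. Rpl37 had 1053 and 937 CPM, a ratio of -0.17, and Rpl38, a gene whose loss shortens the tail and alters the axial skeleton in mice, had 1068 and 964 CPM, a ratio of -0.15. These 3 genes were lower in CD45-KO by at least 1.1-fold. Rpl22 (687 and 685 CPM, -0.00), Rpl7a (-0.00), Rpl10 (0.01) and Rps26 (0.02) had ratios so near 0 that their direction depends on the scaling. Rpl13a and Rps10 have many processed pseudogenes, and the labels do not say how reads that fit several copies were placed. Their counts, low for ribosomal proteins, are therefore uncertain. The pseudogene column Rpl13a-ps1 was at a like level and went the other way. It had 98.7 CPM in LatY136F and 106 CPM in CD45-KO, a ratio of 0.11 (0.04 to 0.18). The part of read placement in the ratio of Rpl13a was not tested.

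The 3 stalk genes did not move together. The stalk recruits the factors that drive initiation and elongation, with Rplp0 as its base and dimers of Rplp1 and Rplp2 as its arms. Rplp2 had 1090 CPM in LatY136F and 1425 CPM in CD45-KO, a log2 ratio of 0.39 (0.37 to 0.41). Rplp1, the member with the most UMIs in LatY136F, had 3022 and 2848 CPM, a ratio of -0.09 (-0.10 to -0.07). Rplp0 had 1522 and 1469 CPM, a ratio of -0.05 (-0.07 to -0.03). Rplp2 was higher in CD45-KO and both partners slightly lower over T-gated cells, and the directions of all 3 were the same under each scaling tried. In cells outside the gates described below, Rplp0 was level, with 1386 CPM in both libraries (0.00, -0.03 to 0.03). Rplp1 was at -0.06 and Rplp2 at 0.38 in those cells.

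Paralogues were counted at lower levels than their partners. Rps27l, a paralogue of Rps27 that p53 is known to induce, lies at chr9:66946086-66949516. It had 77.9 CPM in LatY136F and 58.2 CPM in CD45-KO, a log2 ratio of -0.42 (-0.51 to -0.33), where Rps27 was at 0.26. In cells outside the gates described below Rps27l was at -0.21 (-0.35 to -0.06). Its ratio was -0.27 in the cycling gate and -0.72 in the naive gate. The part of the mix of cells in its ratio over T-gated cells was not tested. Rps27rt, a copy of Rps27 made by retrotransposition, had 459 and 572 CPM, a ratio of 0.32; it is nearly identical to Rps27, so that reads may be split between them. Rpl22l1, the paralogue that Rpl22 is known to restrain, had 175 and 206 CPM, a ratio of 0.23 beside -0.00 for Rpl22. Rpl22 is known for its need in the development of αβ T cells.

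Rpl7l1 had 55.2 and 58.4 CPM, a ratio of 0.08 (-0.01 to 0.18), and its partner Rpl7 had a ratio of 0.12. Rpl36al had 22.8 and 21.5 CPM, a ratio of -0.09 (-0.24 to 0.07), and Rpl36a a ratio of 0.28. Rpl39l, known from the testis, had 23 UMIs in LatY136F and 33 in CD45-KO, a ratio of 0.81 (0.00 to 1.65). Rpl10l, another testis gene, had 7 UMIs and 1, and Rpl3l, known from muscle, had 2 and 1. No fold is given for Rpl10l and Rpl3l at these counts.

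The rule by name left out genes of further ribosomal proteins. Fau, the precursor of a small subunit protein, had 1274 CPM in LatY136F and 1734 CPM in CD45-KO, a ratio of 0.44. Rack1, a scaffold on the head of the small subunit, had 924 and 1029 CPM, a ratio of 0.15. Both were higher in CD45-KO. Of 8 pseudogene columns that bear a member's name 7 had at least 20 UMIs, and their median ratio was -0.02. Rpl10-ps3, the highest of them in LatY136F, had 340 and 291 CPM, a ratio of -0.23.

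Cells were also grouped by transcripts in 14 gates, each naming cells with UMIs of a fixed number of genes; a cell can pass several gates, and a gate is not a cell type. In the 13 gates with at least 50 cells in each library, the ribosomal protein share was higher in CD45-KO in 12. The naive gate asked for at least 2 genes of T cells that have not met antigen, such as Ccr7, Lef1 and Tcf7. It held 919 LatY136F and 1922 CD45-KO cells, with shares of 10.4% and 11.4%. In the cycling gate, with at least 3 genes of DNA replication or mitosis, the 2182 and 1030 cells had shares of 9.79% and 10.9%. The early gate, with at least 3 genes induced by the antigen receptor such as Nr4a1 and Egr2, held 802 and 851 cells with shares of 9.81% and 11.2%. The differences were 1.01, 1.16 and 1.40 percentage points in these 3 gates, and 0.526, 0.769 and 0.789 in cells of at most 10% mitochondrial UMIs.

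Cells with Gzmb, the protease granzyme B, had shares of 9.03% (1680 cells) and 10.7% (337 cells). Cells with Il1rl1, the receptor for IL-33, had 9.27% (7816 cells) and 10.95% (7755 cells), and cells with Il4, Il5 or Il13 had 9.73% (849 cells) and 10.3% (642 cells), a difference of 0.60 that was 0.224 in cells of at most 10% mitochondrial UMIs. The order of the gates by this difference changed between alternatives and is not read here. In cells outside every gate other than that of Il1rl1, 7421 and 7601 of them, the share was 9.13% and 10.6%. Cells with a cytotoxic pair of genes such as Nkg7 and Ccl5 had shares of 10.5% and 11.3%, from 54 and 79 cells. Cells with Cd8a or Cd8b1 had 10.1% and 11.1%, from 76 and 79 cells. The 5 NK markers moved with some of these gates: they summed to 15.8 and 187 CPM in the Cd8-positive cells, 6.46 and 65.4 CPM in the Gzmb-positive cells, 214 and 407 CPM in the cytotoxic gate, which shares genes with that list, and 9.62 and 26.9 CPM in the naive gate. Their part in the shares was not tested. The gate for Foxp3, the factor of regulatory T cells, held 99 and 29 cells and was left out of the count.

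**Figure D2:**
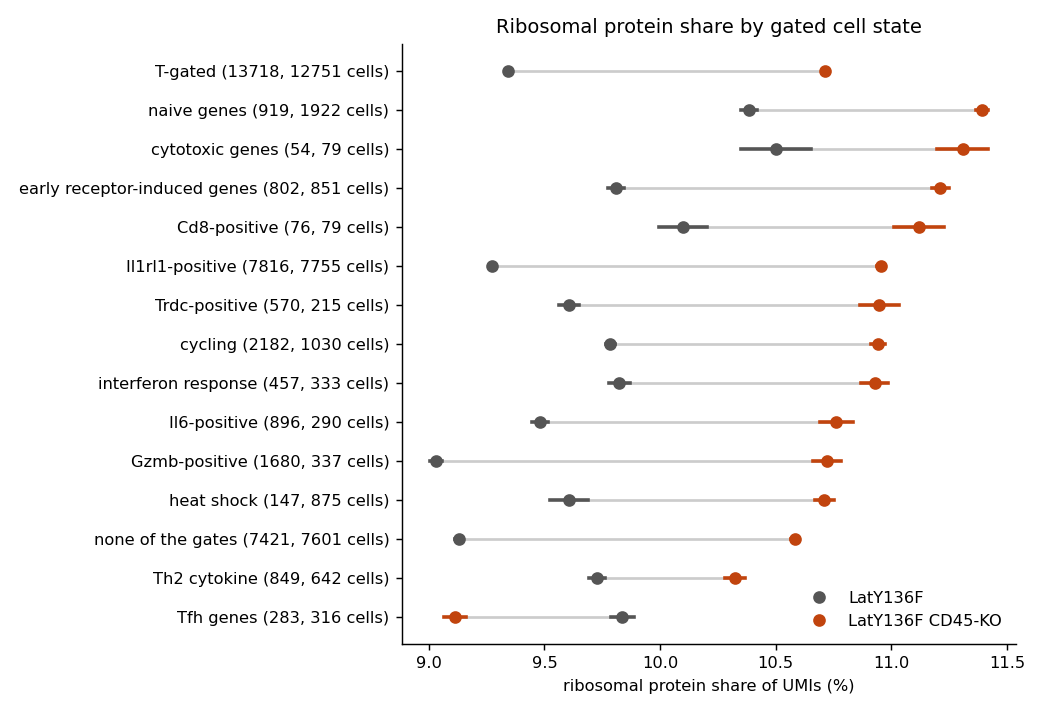
Ribosomal protein share of UMIs in percent (horizontal axis) for T-gated cells and each gated group of at least 50 cells (vertical axis, cells in LatY136F and CD45-KO in brackets); grey points are LatY136F, orange points LatY136F CD45-KO, with 95% counting intervals. The orange point lies to the right in every gate but that of the Tfh genes, where the shares were 9.84% and 9.11%.

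By gene, 64 of 82 members were higher in CD45-KO within the naive gate, against 50.6% of all genes counted there. In the cycling gate 71 of 82 were higher, against 54.2% of all genes. In cells outside the gates 76 of 83 were higher, against 52.9% of all genes. Rps19 had 700 CPM in LatY136F and 928 CPM in CD45-KO in the naive gate, 651 and 905 CPM in the cycling gate, and 592 and 841 CPM outside the gates. Rpl13a had 144 and 91.4 CPM in the naive gate, 147 and 122 CPM in the cycling gate, and 95.7 and 79.3 CPM outside the gates. The order of the 2 libraries for Rps19 and Rpl13a was thus the same in each of these groups.

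Cells with follicular helper (Tfh) genes had the opposite direction. The gate asked for at least 2 of Cxcr5, Bcl6, Il21, Sostdc1, Tox2 and Pdcd1, genes of the T cells that help B cells in the follicle, and it held 283 LatY136F and 316 CD45-KO cells. Their ribosomal protein share was 9.84% (9.79 to 9.89) in LatY136F and 9.11% (9.06 to 9.16) in CD45-KO, and their median share per cell 8.94% and 8.18%. Of 82 members 64 were lower in CD45-KO and 18 higher, where 46.6% of all genes counted there were lower, and the members' median was -0.11. Against cells outside the gates of the same library, the members' median in Tfh-gene cells was 0.11 in LatY136F, with 59 of 82 higher, and -0.20 in CD45-KO, with 67 of 83 lower. Of all genes 53.3% were higher in the first of these comparisons, with a median of 0.05, and 44.6% lower in the second, with a median of 0.08. Tfh-gene cells had median UMIs of 3864 in LatY136F and 3443 in CD45-KO, and cells outside the gates 1913 and 1851. The part of depth in these 2 comparisons was not tested. Whether the genotype difference in Tfh-gene cells differs from that in other cells could not be tested with 1 library per genotype.

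Rpl13a had 168 CPM in LatY136F and 99.7 CPM in CD45-KO in the Tfh-gene cells, the lowest log2 ratio there at -0.76 (-1.08 to -0.44). Rps26 had 2695 and 2096 CPM, a ratio of -0.36. Rps2 and Rpl37 had the same UMI counts in this gate, 1577 and 1123, and so the same ratio of -0.39. Rplp0 had 1796 and 1448 CPM, a ratio of -0.31. All 5 genes had lower ratios here than over all T-gated cells. Rps19, at 0.48 over all T-gated cells, had 631 and 576 CPM, a ratio of -0.13 (-0.28 to 0.01). Among those higher in CD45-KO were Rpl37a with 1006 and 1099 CPM, a ratio of 0.13 (0.02 to 0.24), and Rps9 with 2325 and 2507 CPM, a ratio of 0.11. The genes in this paragraph beyond those of the naming rule were chosen after their values were seen.

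**Figure D3:**
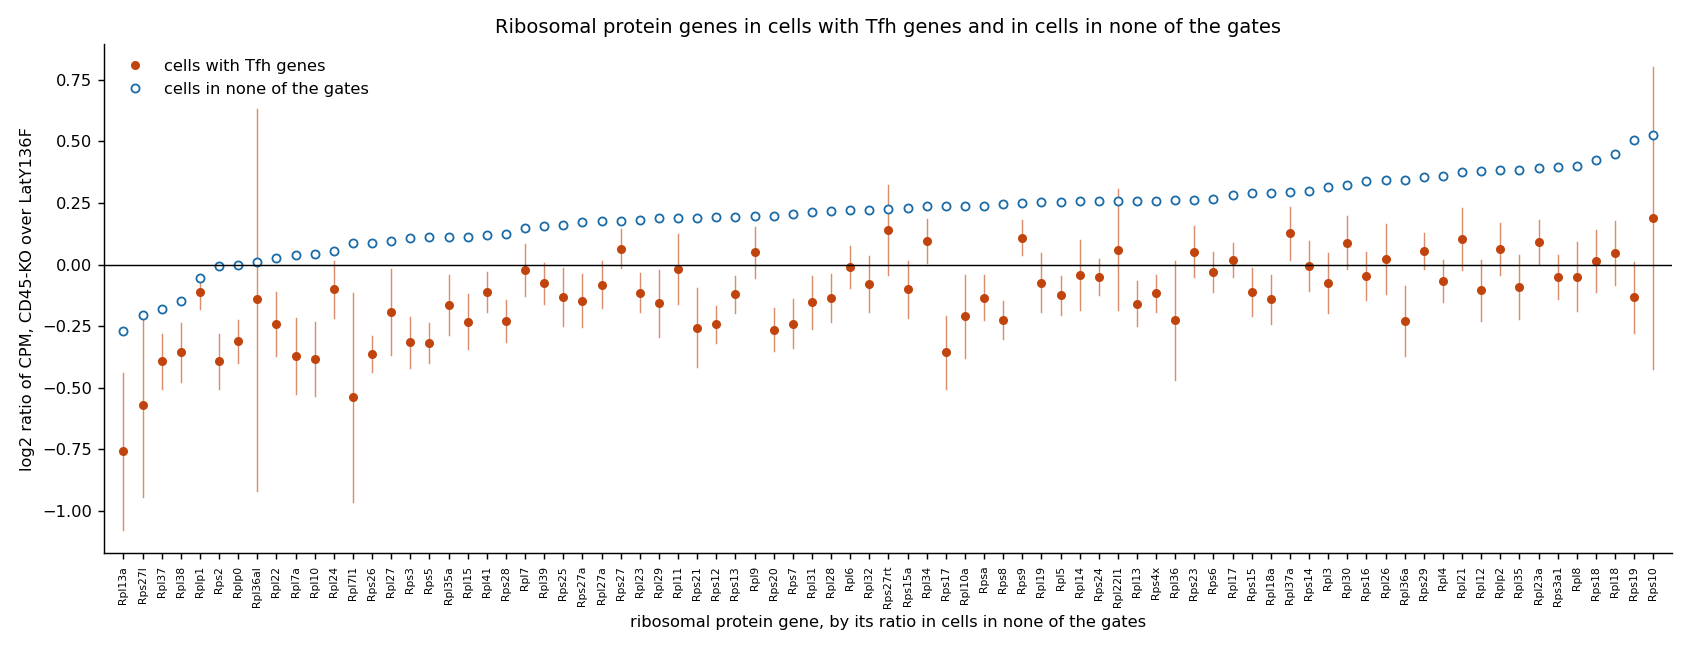
Log2 ratio of CPM in CD45-KO over LatY136F (vertical axis) per ribosomal protein gene (horizontal axis, ordered by the ratio in cells outside the gates); filled orange points are cells with Tfh genes with 95% counting intervals, open blue points cells outside the gates, and 1 gene is not drawn. Most orange points lie below 0 (64 of 82 genes over the gate) and most blue points above it (76 of 83).

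The make-up of the Tfh gate differed between the libraries. Of its cells 120 of 283 (42.4%) in LatY136F and 84 of 316 (26.6%) in CD45-KO were also in the cycling gate, and 141 and 218 cells had more than the 2 genes needed. Without cycling cells the shares were 8.92% and 8.41%, with 60 of the members lower in CD45-KO. With at least 3 Tfh genes required they were 9.13% and 8.72%, with 59 lower. Markers of other cells in the gate summed to 11 and 6 CPM for B cells, 183 and 209 CPM for myeloid cells and 18 and 19 CPM for NK cells; 3 of 7 B cell markers were at 0 in LatY136F and 5 of 7 in CD45-KO. Without the 142 and 157 cells that had any UMI of a non-T marker, the shares were 9.25% and 8.55%, with 63 lower. The direction of the share was the same in each of these subsets, which were chosen after the data were seen, with differences from -0.41 to -0.69 percentage points. The percent of all genes lower in CD45-KO was not computed in these subsets. Their counts of lower members therefore cannot be set against genes at large.

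Members differed in how their level followed the gates. Of 40 members with at least 200 UMIs in all 14 groups, Rps27 had the widest range in its share of ribosomal protein UMIs. In LatY136F it took 1.80% of them in Cd8-positive cells and 3.03% in cells outside the gates, and in CD45-KO 1.95% and 2.95% in the same groups. Rps24 took 2.33% in Tfh-gene cells and 2.97% outside the gates in LatY136F, and 2.42% and 3.07% in CD45-KO. Both genes had their largest part outside the gates.

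Rps26 went the other way, with 2.02% outside the gates and 2.74% in Tfh-gene cells in LatY136F, and in CD45-KO 1.86% outside the gates and 2.48% in Cd8-positive cells. Rpl41, the smallest protein of the ribosome, ran from 1.49% to 1.93% in LatY136F and from 1.35% to 1.99% in CD45-KO. Rpsa ran from 1.30% to 1.60% and from 1.24% to 1.57%, in both libraries with its highest part in Tfh-gene cells. Rplp0 ran from 1.52% to 1.84% and from 1.31% to 1.65%, in both with its lowest part outside the gates.

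Several of these genes, with Rps27l and Rpl13a, also stood apart in cycling cells. Against cells outside the gates, cycling cells had log2 ratios for Rps27l of 1.08 in LatY136F and 1.02 in CD45-KO, with 125 against 58.9 CPM and 103 against 51.1 CPM. For Rpl13a both ratios were 0.62, and for Rps2 they were 0.58 and 0.48. For Rps26 they were 0.48 and 0.43, and for Rplp0 0.38 and 0.31. Rps27 was at -0.59 and -0.50, Rps27rt at -0.58 and -0.53, and Rps24 at -0.20 and -0.19. The members' median was 0.12 and 0.07, with 61 of 82 and 52 of 83 higher, against medians of -0.06 and -0.03 over all genes, of which 44.9% and 47.5% were higher. Cycling cells had median UMIs of 3579 and 3126.5, and cells outside the gates 1913 and 1851; the part of depth in these ratios was not tested.

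Naive-gene cells had more of nearly every member than cells outside the gates. In LatY136F 79 of 82 members were higher, with a median of 0.20, and in CD45-KO 78 of 83, with a median of 0.11. Of all genes 47% and 47.6% were higher, with medians of -0.03 and -0.01. Rps27l had 0.78 and 0.26, Rpl13a 0.59 and 0.20, and Rps2 0.54 and 0.25. Rps27 was lower, at -0.19 and -0.07. Naive-gene cells had median UMIs of 2565 in LatY136F and 2268 in CD45-KO, and cells outside the gates 1913 and 1851. The part of depth in these ratios was not tested. Cells with a cytotoxic pair of genes had members' medians of 0.24 and 0.12 beside 0.16 and 0.05 over all genes, and Gzmb-positive cells -0.02 and 0.03 beside -0.02 and -0.02.

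The difference between libraries was present in cells of like depth and, binned separately, in cells of like mitochondrial share, at unequal size. No bin held both measures alike. In cells under 1000 UMIs the ribosomal protein share was 8.52% in LatY136F and 9.57% in CD45-KO. In cells of 2000 to 3000 UMIs it was 9.17% and 11.1%, the widest gap among bins of depth at 1.92 percentage points. In cells of at least 5000 UMIs it was 10.3% (808 cells) and 10.98% (359 cells), the narrowest gap at 0.73. In cells under 6% mitochondrial UMIs the shares were 8.73% and 9.18%, a gap of 0.44. In cells of at least 12% they were 9.86% and 12.03%, a gap of 2.17. The gap thus grew with the mitochondrial share, which was itself higher in CD45-KO, and the part of RNA quality in the result was not tested.

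**Figure D4:**
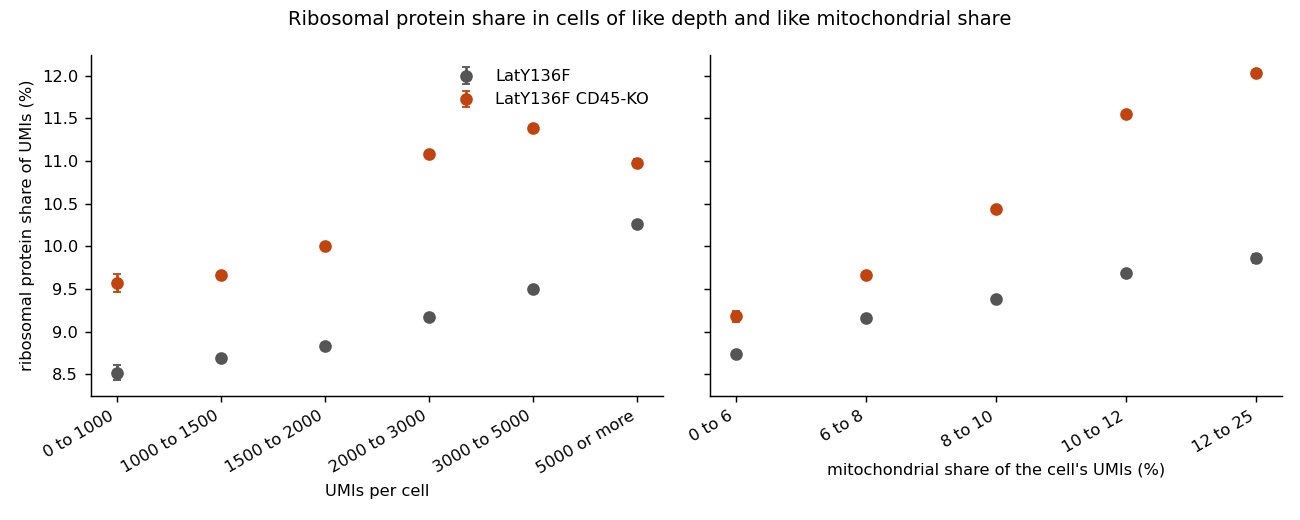
Ribosomal protein share of UMIs in percent (vertical axis) in T-gated cells binned by UMIs per cell (left) and by mitochondrial share of UMIs in percent (right); grey is LatY136F, orange LatY136F CD45-KO, with 95% counting intervals, mostly smaller than the points. The orange points lie above the grey in all bins, by 0.44 percentage points at the lowest mitochondrial share and by 2.17 at the highest.

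Other genes of translation were set beside the ribosomal proteins from lists. Elongation factors and other TOP genes, 19 of them, had a median log2 ratio of 0.06, with 11 higher in CD45-KO and 7 of these by 1.1-fold. Of all genes 53.8% were higher, and 35.9% by 1.1-fold, so these counts were near the shares over all genes. Eef1b2, a subunit of the exchange factor for eEF1A, had 937 CPM in LatY136F and 1212 CPM in CD45-KO, a ratio of 0.37. Pabpc1, the poly(A)-binding protein, had 1439.75 and 1758 CPM, a ratio of 0.29, and Eef1g a ratio of 0.23. Nap1l1 (-0.19), Hnrnpa1 (-0.23) and Eif3l (-0.24) were lower. This list held genes of the TOP class in both directions.

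Initiation factors and their regulators had 13 genes higher and 13 lower, with a median of -0.01 whose sign changed between scalings. Eif4a2, a helicase, had 316 and 422 CPM, a ratio of 0.42. Eif4e, the cap-binding protein, had 132 and 90.5 CPM, a ratio of -0.54. Genes of ribosome biogenesis, which act in the nucleolus, had a median of 0.09, with 26 of 40 higher against 53.8% of all genes. Among them were Nop14 (0.33), Mybbp1a (0.30) and the nucleostemin gene Gnl3 (0.30). Wdr12 (-0.32) and Polr1d (-0.23), a subunit of RNA polymerases I and III, were lower.

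S6 kinase and mTOR genes, a list that also holds the Rps6ka kinases of the ERK and p38 pathways, had a median of 0.13. In this list 11 of 14 were higher, against 53.8% of all genes. Rps6ka3 had a ratio of 0.41, Larp1 of 0.17 and Rps6kb1, the S6 kinase, of 0.10, while Rps6ka5 was at -0.33. The 77 nuclear genes of the mitochondrial ribosome had a median of -0.12, with 56 lower against 46.2% of all genes, among them Mrpl51 (-0.31), Mrpl18 (-0.54) and Mrpl57 (-0.63). Of 13 genes encoded in mitochondria 10 were higher, against 53.8% of all genes, with a median of 0.21. Among the 13, mt-Nd3 was at -0.65. The cytoplasmic and the mitochondrial ribosomal proteins thus had medians on opposite sides of 0.

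**Figure D5:**
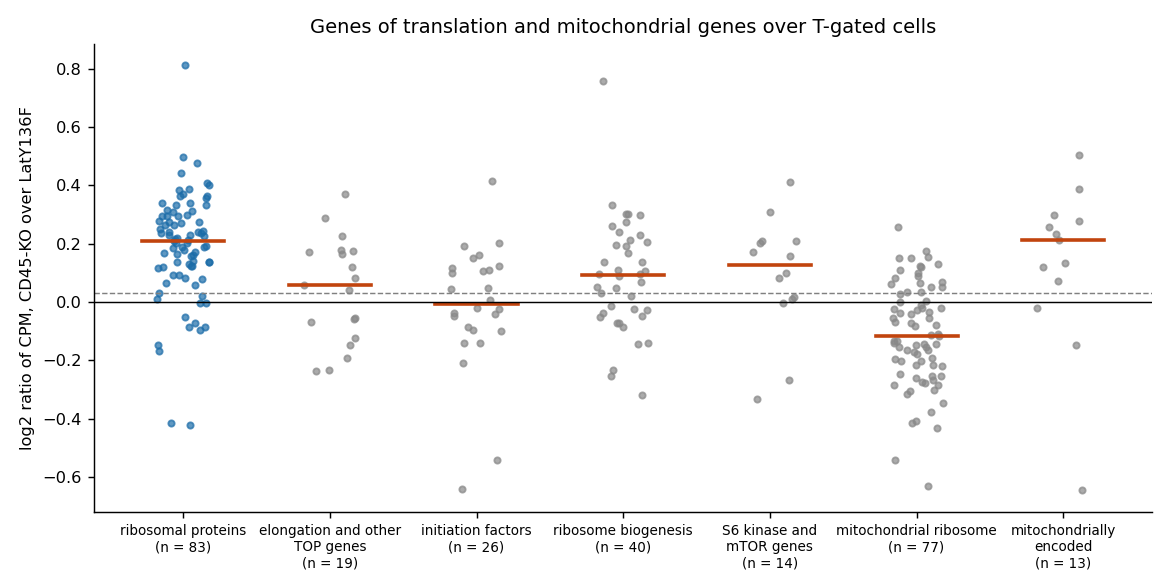
Log2 ratio of CPM in CD45-KO over LatY136F over T-gated cells (vertical axis) per gene, grouped by list (horizontal axis, n genes with at least 20 UMIs); horizontal bars are list medians and the dashed line is the median of all genes, 0.03. The bar of the ribosomal proteins lies at 0.21 and that of the mitochondrial ribosome at -0.12.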

How the data were processed

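The authors deposited counts of molecules (UMIs) per cell and gene, with no further normalization. Per the file headers these counts were made with the BD WTA Multiplex Rhapsody Analysis Pipeline 1.9.1, GRCm38 and GENCODE M19; the design text names pipeline 2.0 and the submitters' processing notes GRCm39, and the headers were followed. Gene positions came from GENCODE M21. Kept were cells of 200 or more genes whose mitochondrial UMIs made up no more than 25%. Doublets were not called and remain. Counts were summed over T-gated cells per library and divided by all UMIs, as CPM. Genes with at least 20 UMIs over both libraries entered the counts of genes. Ratios have exact conditional binomial 95% intervals and shares exact Clopper-Pearson intervals, covering counting error only; the computation was tested on simulated data. No test was run, since cells of 1 library are not replicates.

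Gates needed 3 genes for cycling and early genes, 4 for interferon response, 2 for Tfh, cytotoxic and naive genes, and 1 elsewhere. Named were the stalk genes, Rpsa, the paralogues, the 8 highest and 8 lowest ratios at 50 CPM or more, the 6 highest levels, the 6 widest ranges over gates and the 3 highest and lowest of each other list; a few more were named after their values were seen, and some genes of the rule and the gates are not reported here. The members and lists were chosen with earlier results of these data known. Alternatives were other scalings (edgeR 4.0.16 TMM, DESeq2 1.42.0 size factors), other filters, and thinning to 1000 UMIs per cell. Python 3.11.15, numpy 2.4.6, scipy 1.17.1 and pandas 2.3.3 were used.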

Additional observations from a re-analysis of the deposited data

How the results depend on the processing

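The members' median log2 ratio was above 0 under all 13 alternatives over T-gated cells. It was 0.25 with totals without ribosomal protein and mitochondrial genes, 0.18 with median-of-ratios size factors and 0.13 in cells of at most 10% mitochondrial UMIs, against 0.21 as reported. Members higher in CD45-KO numbered 68 to 74. Members past 1.5-fold numbered 0 after thinning to 1000 UMIs, 3 with no minimum of counts and 0 at 50 CPM or more; the 3 were Rpl39l, Rpl10l and Rpl3l, all at low counts. The share difference of 1.37 percentage points was 0.875 in cells of at most 10% mitochondrial UMIs (9.25% and 10.1%), 1.34 with non-T cells included, and 2.04 when ribosomal protein UMIs were set against 100 other UMIs that are not mitochondrial (11.4 and 13.4). The cause of these shifts was not tested. The share was higher in CD45-KO in 12 of 13 gates under each of 7 alternatives, counted over the same 13 gates although the cytotoxic gate (30 and 45 cells) and the Cd8 gate (34 and 41) were under 50 cells when gated after thinning, and the cytotoxic gate (41 and 51) at 10% mitochondrial UMIs. In Tfh-gene cells the difference ran from -0.75 to -0.32 percentage points over 9 alternatives, the last with cells gated after thinning, and was -0.95 per 100 other UMIs that are not mitochondrial. The median of elongation and other TOP genes stayed above 0 (0.03 to 0.10), and that of initiation factors lay between -0.04 and 0.05. No paired analysis was possible because each genotype has 1 library. Low counts limit Rpl39l, Rpl10l and Rpl3l, and few cells the Foxp3 gate.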
